A study of Bos taurus with 14 samples.

Results

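The genes described here are the peroxisome proliferator-activated receptors (*PPARA*, *PPARD* and *PPARG*), their retinoid X receptor partners (*RXRA*, *RXRB* and *RXRG*), the coactivators *PPARGC1A* and *NCOA1*, the corepressor *NCOR1*, and the orphan receptor *ESRRA*. They were chosen by name, and every probe set whose only gene symbol was one of these names was kept. Of the 10 listed genes, 9 had a probe set, and together they had 23 of the 24016 bovine probe sets. No probe set was matched to *ESRRA* by symbol or by gene identifier, so that this gene was not analysed here. The samples were *M. longissimus dorsi* (LD) muscle of crossbred Charolais × Limousin heifers, 7 outdoor/pasture-fed and 7 indoor/concentrate-fed, with 1 Affymetrix bovine array per animal. The outdoor/pasture-fed heifers grazed, and the indoor/concentrate-fed heifers were housed and given concentrate with barley straw, for a year before slaughter in both cases. Diet and housing went together in this design and cannot be told apart, and the study's methods describe several management groups within each system, while every test here treats animals as independent.

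PPARs are nuclear receptors that bind fatty acids and their derivatives and act on DNA as heterodimers with an RXR, which binds retinoids. PPARA and PPARD are known in muscle and liver for switching on genes of fatty acid oxidation, and PPARG for driving fat cell formation. Without ligand the heterodimer can hold corepressors such as NCOR1, which recruits histone deacetylases, and with ligand it binds coactivators such as NCOA1, which opens chromatin. PPARGC1A is a coactivator of PPARs and of ESRRA that is best known for promoting mitochondrial biogenesis and oxidative metabolism in muscle.

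No member passed the threshold in the comparison of feeding systems, and nearly all that varied had a lower mean at pasture. Values are on the log2 scale as summarised by FARMS, a factor analysis that returns an almost constant value where the probes of a set do not move together, so a set is called varying here if its standard deviation (SD) over the 14 arrays was above 0.01. By that measure 15 member probe sets varied, or 65.2% of them, against 40.1% over the whole array, and 8 of the 9 genes had at least 1 varying set. The mean was lower in outdoor/pasture-fed than in indoor/concentrate-fed muscle for 14 of the 15, against 52.5% of all varying probe sets, and *PPARG* was the exception. The median difference, outdoor/pasture-fed minus indoor/concentrate-fed, was -0.27 over the 15 sets and -0.008 over all varying probe sets. With limma, 0 members had an adjusted p under 0.05 (0.0167% of all probe sets did), and 0 did when the fit was limited to varying probe sets (0.343%). At an unadjusted p under 0.05 there were 7 lower and 0 higher, in *PPARA*, *RXRA*, *PPARGC1A* and *NCOA1*, where 6.07% of all probe sets were lower and 5.35% higher. In the fit to varying probe sets there were 6 lower and 0 higher, against a background of 10.4% lower. The sets of 1 gene share its transcript and are not separate genes, which limits what these counts and the median show. With 1 set per gene, 7 of the 8 genes with a varying set had a lower mean at pasture. When animals were left out one by one, the count of 7 became 3 without replicate 4 of the outdoor/pasture-fed group. It became 4 without replicate 2, 5 or 6 of that group, and likewise 4 without replicate 2, 5 or 6 of the indoor/concentrate-fed group. In no member did the groups fail to overlap, while 0.811% of all varying probe sets had groups that did not overlap.

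**Figure D1:**
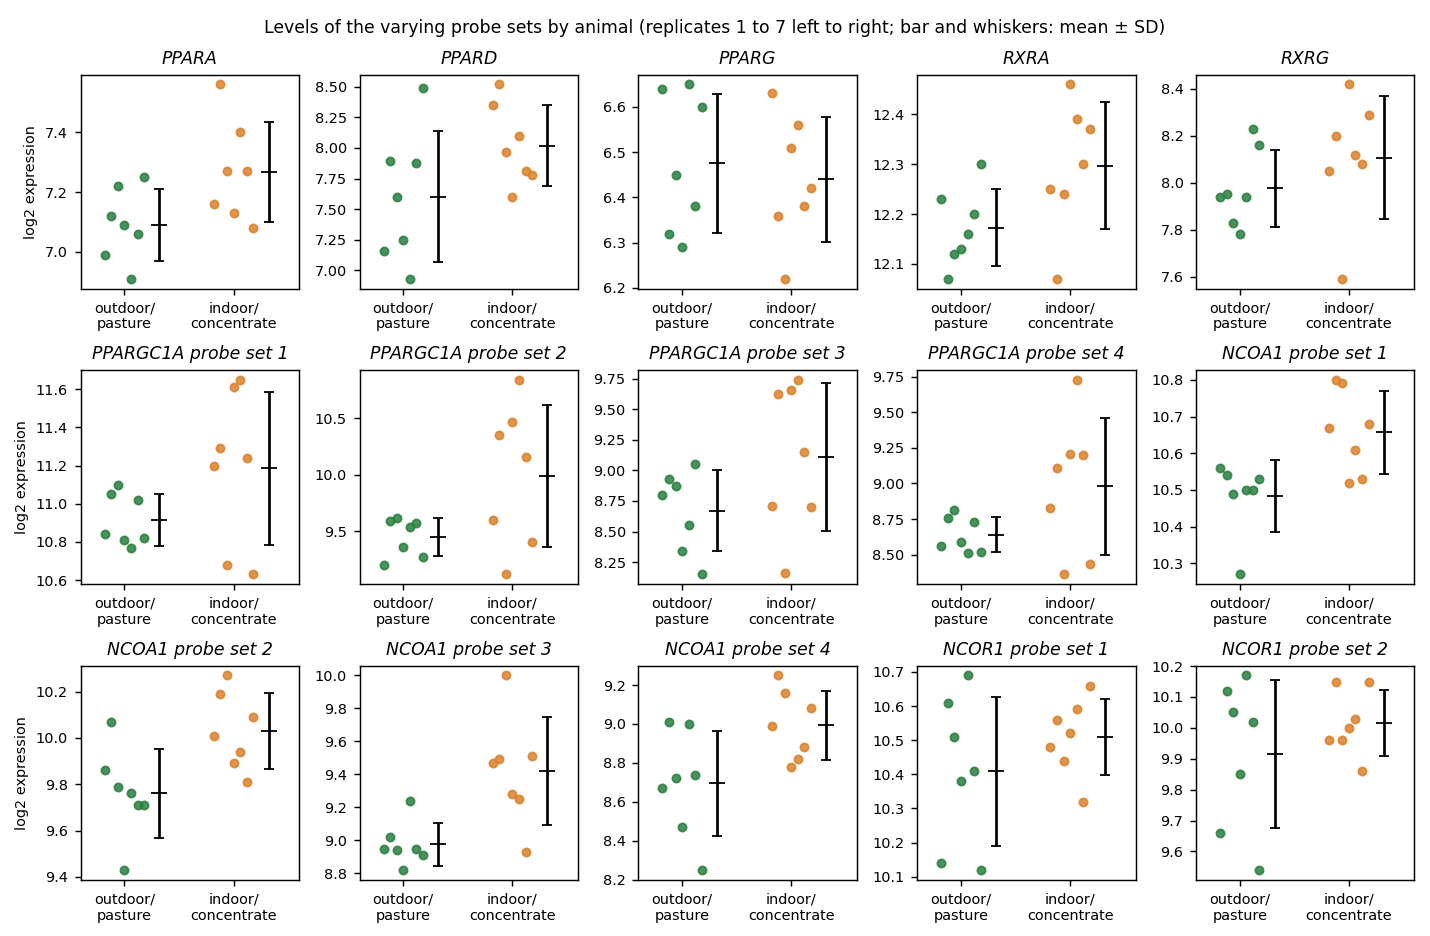
Level (log2 expression) of each of the 15 varying member probe sets in every animal, with outdoor/pasture-fed animals in green on the left and indoor/concentrate-fed animals in orange on the right, and bars for the mean ± SD (n = 7 each). The groups overlap in all 15 panels, and the indoor/concentrate-fed animals are spread more widely for the 4 *PPARGC1A* sets.

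Of the receptors, *PPARA*, best known for the response of liver to fasting, had 1 varying set. Its lowest, median and highest levels were 6.91, 7.09 and 7.25 in outdoor/pasture-fed muscle and 7.08, 7.27 and 7.56 in indoor/concentrate-fed muscle. All 7 outdoor/pasture-fed animals lay below the indoor/concentrate-fed median, although the groups overlapped, and indoor/concentrate-fed replicates 2 and 5 were the highest. The difference was -0.18 (SE 0.08, limma adjusted p = 0.412), with a two-sided exact permutation p of 0.039. The second set was flat at 5.71.

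*PPARD*, the main PPAR of skeletal muscle, showed the widest scatter of the receptors. Its varying set was at 6.93, 7.60 and 8.49 (lowest, median and highest) in outdoor/pasture-fed muscle, against 7.60, 7.97 and 8.52 in indoor/concentrate-fed muscle. Outdoor/pasture-fed replicates 1, 3, 4 and 5 lay below every indoor/concentrate-fed animal, replicate 3 by less than the rounding shows, while outdoor/pasture-fed replicate 7 was almost as high as the highest of them. The mean was 7.60 ± 0.53 in outdoor/pasture-fed muscle, against 8.02 ± 0.33 in indoor/concentrate-fed muscle (SD, n = 7 each), a difference of -0.42 with a 95% confidence interval of -0.93 to 0.09 (limma adjusted p = 0.537). With 1 animal left out, the difference was between -0.57 (without outdoor/pasture-fed replicate 7, limma adjusted p = 0.309) and -0.31 (without outdoor/pasture-fed replicate 5, limma adjusted p = 0.655). The other *PPARD* sets were flat at 6.10 and 5.79.

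*PPARG*, the fat cell receptor, had a single set that differed by less than its spread. The mean of this set was 6.46, the lowest of the varying members and below the arrays' medians over all probe sets (6.77 to 6.84). Its lowest, median and highest levels were 6.29, 6.45 and 6.65 in outdoor/pasture-fed muscle, and 6.22, 6.42 and 6.63 in indoor/concentrate-fed muscle. The groups covered nearly the same range, and the difference of 0.04 (95% confidence interval -0.13 to 0.20, limma adjusted p = 0.915) lost its sign without indoor/concentrate-fed replicate 3, at -0.00075. In whole muscle, fewer cells of a type and less RNA per cell cannot be told apart, so markers of fat cells are given beside this receptor. Of 6 adipocyte markers 5 were measured and 4 varied, all with a lower mean at pasture and none at an unadjusted p under 0.05. They included *CIDEC*, a lipid droplet protein (-0.39, SE 0.43), and *LEP*, the hormone leptin (-0.22, SE 0.16). Their mean level ranged from 6.39 to 7.16 over outdoor/pasture-fed animals and from 6.30 to 8.09 over indoor/concentrate-fed animals, and their part in the values of *PPARG* was not tested.

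Among the RXRs, *RXRA*, the common partner of PPARs, was read by a single, steady set. It was at 12.07, 12.16 and 12.30 (lowest, median and highest) in outdoor/pasture-fed muscle, against 12.07, 12.30 and 12.46 in indoor/concentrate-fed muscle. Indoor/concentrate-fed replicate 2 was level with the lowest outdoor/pasture-fed animal, and 3 indoor/concentrate-fed animals (replicates 4, 5 and 7) lay above every outdoor/pasture-fed animal. The difference was -0.12 (SE 0.06, limma adjusted p = 0.428, exact permutation p = 0.0513). With 1 animal left out it was between -0.16 (without indoor/concentrate-fed replicate 2, limma adjusted p = 0.259) and -0.10 (without indoor/concentrate-fed replicate 4, limma adjusted p = 0.526). *RXRG*, the form known from skeletal muscle and heart, had a varying set at 7.78, 7.94 and 8.23 in outdoor/pasture-fed muscle and at 7.59, 8.12 and 8.42 in indoor/concentrate-fed muscle. Both the lowest and the highest animal were indoor/concentrate-fed (replicates 3 and 4), and the difference of -0.13 (95% confidence interval -0.38 to 0.12) had a limma adjusted p of 0.731. The other *RXRG* set was flat at 7.02. *RXRB*, the widely expressed form, had only a flat set at 7.37, so that no difference could be measured for it.

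The coactivator *PPARGC1A* varied on all 4 of its sets, and its indoor/concentrate-fed animals included both the highest and, on 3 of the sets, the lowest animal. The sets are numbered by falling mean level, and the first was at 10.77, 10.84 and 11.10 (lowest, median and highest) in outdoor/pasture-fed muscle, against 10.63, 11.24 and 11.65 in indoor/concentrate-fed muscle. The second set was at 9.20, 9.54 and 9.62 in outdoor/pasture-fed muscle, against 9.12, 10.16 and 10.84 in indoor/concentrate-fed muscle. On both, the outdoor/pasture-fed animals stayed inside the indoor/concentrate-fed range. The third set was at 8.15, 8.80 and 9.05 in outdoor/pasture-fed muscle and at 8.16, 9.15 and 9.74 in indoor/concentrate-fed muscle. The last was at 8.51, 8.59 and 8.81 in outdoor/pasture-fed muscle and at 8.36, 9.11 and 9.73 in indoor/concentrate-fed muscle. Each set had indoor/concentrate-fed animals above every outdoor/pasture-fed one.

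The *PPARGC1A* differences were -0.27, -0.54, -0.44 and -0.34 on the 4 sets in that order, with SEs of 0.16, 0.24, 0.26 and 0.19 and limma adjusted p from 0.425 to 0.562. The second set alone had an unadjusted p under 0.05 in limma, and its exact permutation p was 0.0524. When each set was centred on its mean over the 14 animals, indoor/concentrate-fed replicates 2, 4, 5 and 6 were above 0 on all 4 sets, by an average of 0.48, 0.62, 0.87 and 0.32. Indoor/concentrate-fed replicates 3 and 7 were below 0 on all 4, at an average of -0.54 and -0.33, and replicate 1 was near the mean at -0.03. Outdoor/pasture-fed animals averaged between -0.43 and -0.02, all below the mean. The ratio of the indoor/concentrate-fed to the outdoor/pasture-fed SD was 2.99, 3.64, 1.83 and 3.91 on the 4 sets. Over all varying probe sets the median of that ratio was 1.13, 59.9% had the larger SD indoors and 17.3% had a ratio at least as high as the lowest of *PPARGC1A*, which describes the spread without testing it.

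**Figure D2:**
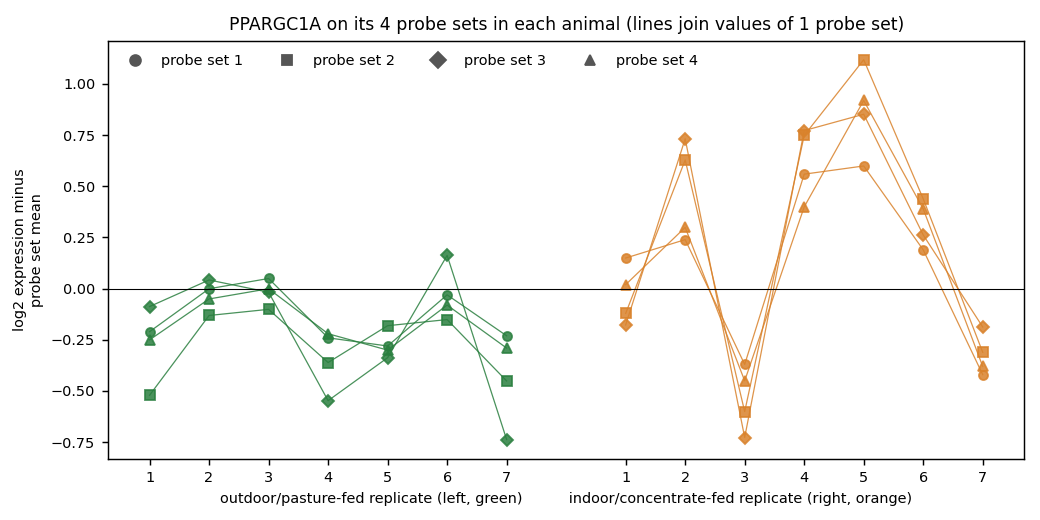
*PPARGC1A* on its 4 probe sets in each animal (vertical axis: log2 expression minus the mean of the set over the 14 animals), with outdoor/pasture-fed animals in green on the left, indoor/concentrate-fed animals in orange on the right, a marker shape per set and lines joining the values of 1 set. Indoor/concentrate-fed replicates 2, 4, 5 and 6 are above 0 on every set, replicates 3 and 7 below 0 on every set, and the outdoor/pasture-fed animals keep to a narrower band.

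*NCOA1*, a histone acetyltransferase also called SRC-1, had the smallest p-values of the members, with lower means at pasture on all 4 sets. The third set was at 8.82, 8.95 and 9.24 (lowest, median and highest) in outdoor/pasture-fed muscle, against 8.93, 9.47 and 10.00 in indoor/concentrate-fed muscle. All outdoor/pasture-fed animals lay below 6 of the 7 indoor/concentrate-fed animals, replicate 6 being the exception. Its mean was 8.97 ± 0.13 in outdoor/pasture-fed muscle, against 9.42 ± 0.33 in indoor/concentrate-fed muscle (SD, n = 7 each), a difference of -0.45 (SE 0.13, limma adjusted p = 0.247, exact permutation p = 0.00524), or 1.36-fold more in indoor/concentrate-fed muscle. The first set was at 10.27, 10.50 and 10.56 in outdoor/pasture-fed muscle and at 10.52, 10.67 and 10.80 in indoor/concentrate-fed muscle, so that the groups overlapped only narrowly. Its difference was -0.17 (SE 0.06, limma adjusted p = 0.276, exact permutation p = 0.00699). The second set was at 9.43, 9.76 and 10.07 in outdoor/pasture-fed muscle and at 9.81, 10.01 and 10.27 in indoor/concentrate-fed muscle. Here 5 outdoor/pasture-fed animals were below every indoor/concentrate-fed one. The last set was at 8.25, 8.72 and 9.01 in outdoor/pasture-fed muscle and at 8.78, 8.99 and 9.25 in indoor/concentrate-fed muscle. The second and last sets differed by -0.27 and -0.30 (SE 0.09 and 0.12, limma adjusted p = 0.303 and 0.375, exact permutation p = 0.0152 and 0.0315).

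The same animals were high or low on the *NCOA1* sets. Indoor/concentrate-fed replicates 1, 2, 3 and 7 were above the 14-animal mean on all 4 sets, and outdoor/pasture-fed replicates 1, 3, 4, 6 and 7 were below it on all 4. The high indoor/concentrate-fed animals were therefore partly other ones than for *PPARGC1A*, where replicates 3 and 7 were the low animals. When each animal was left out in turn, the first 3 *NCOA1* sets kept an unadjusted p under 0.05 in limma in 14 of 14 fits and the last in 9 of 14, and no set passed after adjustment in any of them.

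The corepressor *NCOR1* showed the reverse spread, with more scatter among outdoor/pasture-fed animals. Of its 5 sets 2 varied, and the first was at 10.12, 10.41 and 10.69 in outdoor/pasture-fed muscle, against 10.32, 10.52 and 10.66 in indoor/concentrate-fed muscle. The second was at 9.54, 10.02 and 10.17 in outdoor/pasture-fed muscle, against 9.86, 10.00 and 10.15 in indoor/concentrate-fed muscle. On both sets outdoor/pasture-fed replicates 1 and 7 were the lowest animals of all. The differences were -0.10 on both (SE 0.09 and 0.10, limma adjusted p = 0.745 and 0.758). The remaining sets were flat at 9.85, 6.96 and 5.78, and a flat set gives no difference whatever its level.

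**Figure D3:**
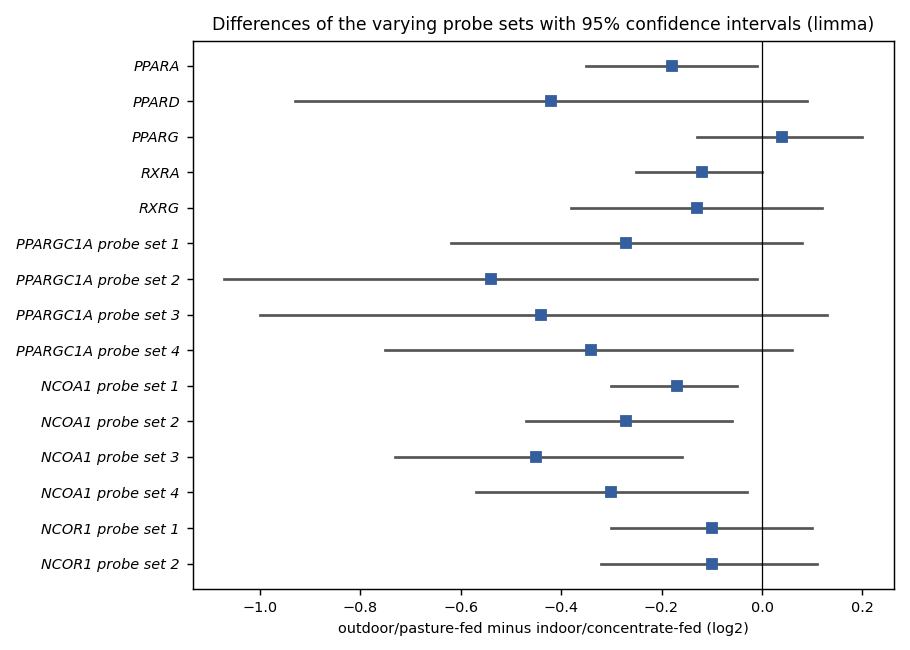
Difference between feeding systems (outdoor/pasture-fed minus indoor/concentrate-fed, log2) for the 15 varying member probe sets, as squares with 95% confidence intervals from limma. Only *PPARG* lies above 0, at 0.04, and the intervals of all 4 *NCOA1* sets lie below 0 before any adjustment for the number of probe sets tested.

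Varying probe sets of 1 gene went together over the animals for *PPARGC1A*, *NCOA1* and *NCOR1*, the only genes with more than 1 such set. Flat sets do not enter, and no receptor had a second varying set to compare. Within groups, r was between 0.30 and 0.98 in outdoor/pasture-fed and between 0.68 and 0.97 in indoor/concentrate-fed animals. For the 13 pairs of varying sets that read the same gene, Pearson's r over the 14 animals was between 0.72 and 0.96, and all 13 passed a permutation test with 100000 resamples after Benjamini-Hochberg adjustment over the 13. They also passed with Spearman's rho and with the group means removed. Without the 2 animals farthest from the median, r between the first and last *NCOA1* sets was 0.55, with an adjusted permutation p of 0.0664.

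Genes that the receptors act on were mostly higher at pasture in the same animals, opposite in sign to most of the members, although none passed over all probe sets. The lists below were drawn up with earlier results of these arrays known, share some genes (*CD36*, *FABP3*, *FABP4*, *LPL* and *ACSL1* are in more than 1), and use for each gene the set with the highest mean. Of 27 textbook PPAR targets 23 were measured and 22 varied, 19 with a higher and 3 with a lower mean at pasture. Their median difference was 0.34, against -0.008 over all varying probe sets, and 47.5% of these had a higher mean at pasture. At an unadjusted p under 0.05 in limma 12 targets were higher and 0 lower, where 5.35% of all probe sets were higher and 6.07% lower, and 9.21% of the varying ones were higher in their own fit. *CPT1B*, which makes acylcarnitines for import into mitochondria, averaged 9.96 ± 0.17 in outdoor/pasture-fed muscle and 9.30 ± 0.25 in indoor/concentrate-fed muscle (SD, n = 7 each). *PLIN5*, which couples lipid droplets to mitochondria, averaged 8.25 ± 0.38 in outdoor/pasture-fed muscle and 7.15 ± 0.45 in indoor/concentrate-fed muscle (SD, n = 7 each). These were the 2 targets that rose in the fit limited to varying probe sets (limma adjusted p = 0.0249 and 0.0368), and over all probe sets their adjusted p was 0.105 and 0.147. The paper had already reported the same sets of both genes as higher at pasture on these arrays, after its filter for informative probe sets.

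Targets of PPARGC1A and ESRRA, mostly mitochondrial, also had higher means at pasture, while *PPARGC1A* itself did not. Of 27 such genes 22 were measured and 19 varied, all 19 with a higher mean at pasture, against 47.5% of all varying probe sets. Their median difference was 0.13, against -0.008 over all varying probe sets. At an unadjusted p under 0.05, 10 were higher and 0 lower, against 5.35% and 6.07% of all probe sets. The fit to varying probe sets gave the same counts, against 9.21% higher and 10.4% lower. *COX7A1*, a muscle subunit of cytochrome c oxidase, differed by 0.28 (SE 0.06, limma adjusted p = 0.147), and *UQCRC2*, a core subunit of respiratory complex III, by 0.25 (SE 0.06, limma adjusted p = 0.19). None of them passed the threshold.

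Genes that supply or bind receptor ligands were mixed. Of 18 listed 16 were measured and 14 varied, 9 higher and 5 lower at pasture, with a median difference of 0.09. At an unadjusted p under 0.05, 5 were higher and 1 lower, against 5.35% and 6.07% of all probe sets. The fit to varying probe sets gave the same counts, against 9.21% higher and 10.4% lower. Those higher included *FABP5*, which carries fatty acids to PPARD (0.48, SE 0.12, limma adjusted p = 0.213), and *CD36*, a fatty acid transporter (0.33, SE 0.09, limma adjusted p = 0.219). The *FABP5* value is that of its set with the highest mean, and the paper reported another *FABP5* set as higher at pasture. With the set of the largest SD for each gene, the lowest limma adjusted p of this list was 0.105. The gene that was lower at that level was *DHRS3*, a retinaldehyde reductase, named after its value was seen (-0.37, SE 0.14, limma adjusted p = 0.331). Of 28 other nuclear receptors and coregulators 15 were measured and 12 varied, 5 higher and 7 lower, with a median difference of -0.06. Of these, 0 were higher and 2 lower at an unadjusted p under 0.05, against the same 5.35% and 6.07% of all probe sets. In the fit to varying probe sets the counts were again 0 and 2, against 9.21% and 10.4%. The 2 lower genes were *NR1H2*, the oxysterol receptor LXR-beta and another RXR partner (-0.18, SE 0.06, limma adjusted p = 0.282), and *PRMT1*, an arginine methyltransferase that acts as a coactivator (-0.22, SE 0.07, limma adjusted p = 0.286). No gene of these lists passed over all probe sets.

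**Figure D4:**
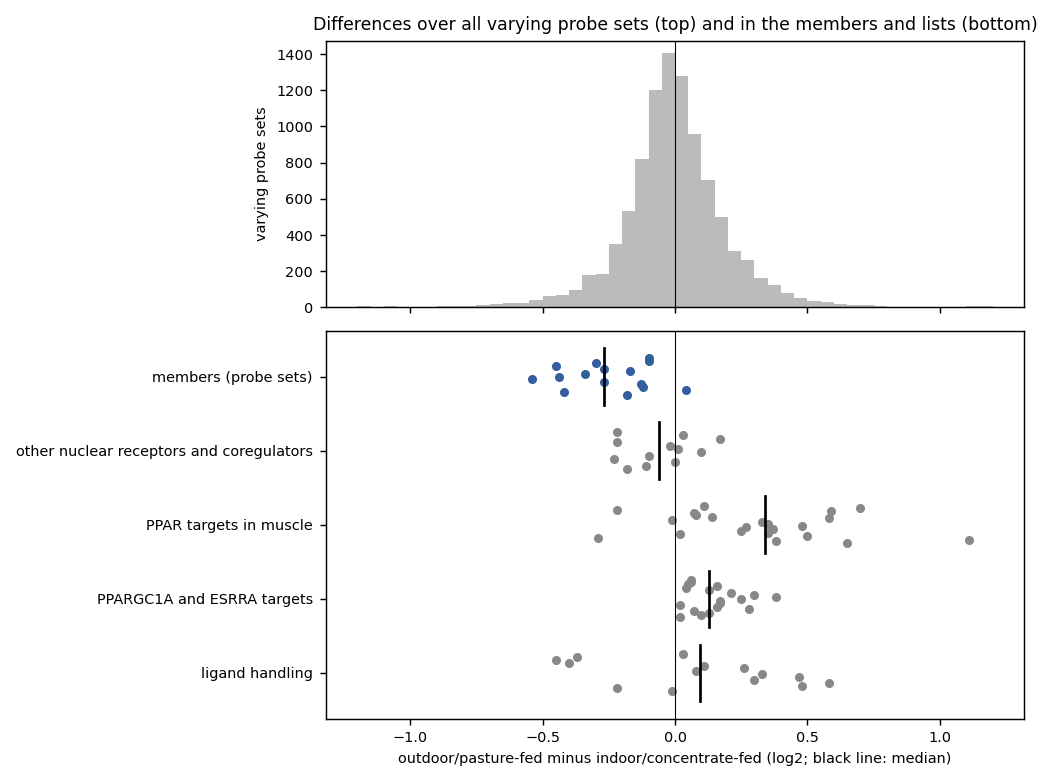
Top, histogram of the difference (outdoor/pasture-fed minus indoor/concentrate-fed, log2) over all varying probe sets, and bottom, the same difference for each varying member probe set and each varying gene of the lists, with a black line at each median. The members lie mostly below 0 (median -0.27) and PPAR targets mostly above it (median 0.34).

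Marker genes were read beside these values because whole muscle holds several cell types. Muscle fibre markers (7 of 8 measured, with *ACTA1*, *CKM*, *MB* and *TNNT3* flat, which narrows the range of their mean) had a mean level of 13.70 to 13.76 in outdoor/pasture-fed and 13.68 to 13.78 in indoor/concentrate-fed animals, where the arrays' medians over all probe sets were 6.77 to 6.84. Among them *MYH7*, slow myosin, differed by 0.11 (SE 0.09) and *TNNI2*, fast troponin I, by -0.07 (SE 0.03, limma adjusted p = 0.402). Endothelial markers (4 of 4 measured, *VWF* flat) had a mean level of 8.16 to 8.49 in outdoor/pasture-fed and 7.78 to 8.14 in indoor/concentrate-fed animals, without overlap. Of all varying probe sets 0.811% had groups without overlap, although a single set is not like a mean of markers. The 3 varying endothelial markers were all higher at pasture at an unadjusted p under 0.05 in limma, against 5.35% of all probe sets. *PECAM1* and *CDH5*, both junction proteins of vessel walls, differed by 0.54 and 0.59 (SE 0.11 and 0.15, limma adjusted p = 0.147 and 0.2). Leukocyte markers (3 of 4 measured) spanned 7.07 to 7.93 in outdoor/pasture-fed and 6.66 to 7.73 in indoor/concentrate-fed animals, with differences of 0.31 for *PTPRC* and 0.10 for *CD14*. Fibroblast markers (4 of 4 measured) spanned 10.89 to 12.52 in outdoor/pasture-fed and 11.14 to 12.19 in indoor/concentrate-fed animals, with 0.21 for *DCN* and -0.28 for *COL1A1*. The log2 scale has no zero, so that no marker can be called absent. As a limited sign of RNA quality, the 3′ minus 5′ control difference for *EF1A* averaged -1.91 in outdoor/pasture-fed and -1.69 in indoor/concentrate-fed animals (exact permutation p = 0.0973). For *GAPDH* it lay between -0.06 and 0.03 in outdoor/pasture-fed and -0.07 and 0.01 in indoor/concentrate-fed animals. For actin it was flat at 0.52 in every animal, and so gave no reading of quality. The part of cell makeup or RNA quality in the member differences was not tested.

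The level of a receptor or coregulator in an animal was not found to follow that of the PPAR targets. The targets were averaged after centring each of the 23 on its mean, and this average was between 0.019 and 0.367 in outdoor/pasture-fed and between -0.244 and 0.053 in indoor/concentrate-fed animals. Because the groups are nearly separate on it, correlations within groups stand beside the pooled ones. Of 8 members tested, with r from -0.59 to 0.16 over 14 animals, none passed the adjustment over the 8 (permutation test with 100000 resamples). For *RXRA*, r was -0.59 (permutation p = 0.028, adjusted 0.224) and rho -0.61 (permutation p = 0.023, adjusted 0.184), with r at 0.29 within outdoor/pasture-fed and -0.72 within indoor/concentrate-fed animals. These within-group values became -0.01 without outdoor/pasture-fed replicate 1 and 0.01 without indoor/concentrate-fed replicate 2, and the outdoor/pasture-fed one 0.67 without its replicate 7. For *PPARA*, r was -0.30 pooled, -0.14 within outdoor/pasture-fed and 0.75 within indoor/concentrate-fed animals. For *PPARD*, it was -0.31 pooled, -0.17 within outdoor/pasture-fed and 0.73 within indoor/concentrate-fed animals. The positive values rested largely on indoor/concentrate-fed replicate 2, without which they were 0.23 for *PPARA* and 0.38 for *PPARD*. The outdoor/pasture-fed values were 0.43 and 0.37 without replicate 1 of that group, and -0.79 and -0.64 without its replicate 5, so that single animals set their sign or size. *PPARGC1A* gave -0.25 pooled, -0.02 within outdoor/pasture-fed and 0.40 within indoor/concentrate-fed animals (0.47 without outdoor/pasture-fed replicate 1, 0.69 without indoor/concentrate-fed replicate 2 and 0.21 without indoor/concentrate-fed replicate 3). *NCOR1* gave -0.47 pooled, -0.65 within outdoor/pasture-fed and 0.04 within indoor/concentrate-fed animals. Its outdoor/pasture-fed value stayed negative with any 1 animal left out, between -0.96 and -0.45. With the group means removed, the lowest adjusted permutation p of the 8 members was 0.711.

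**Figure D5:**
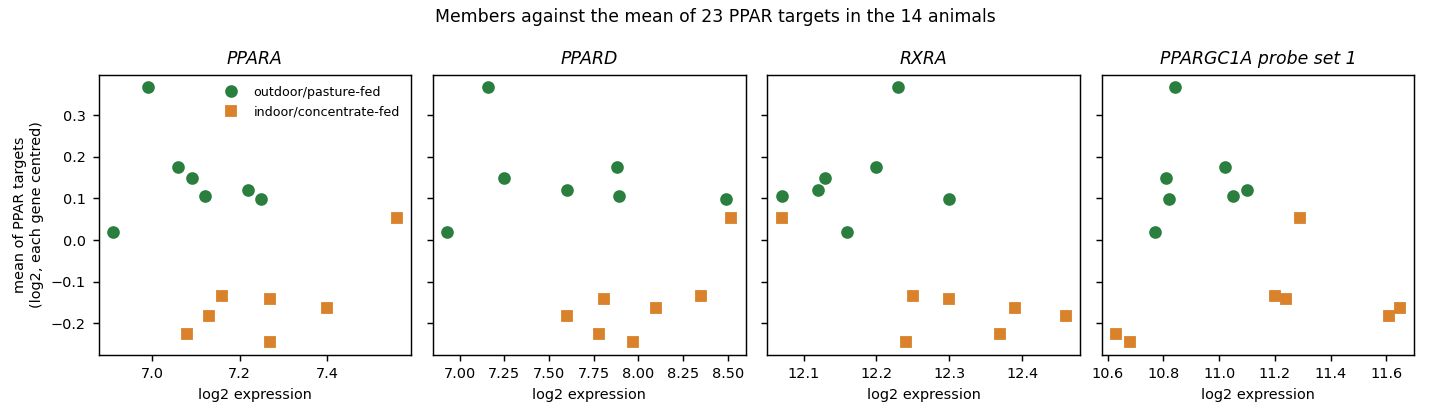
Mean of the 23 PPAR targets, each centred on its 14-animal mean (vertical axis, log2), against the level of 4 members (horizontal axes, log2 expression) in outdoor/pasture-fed (green circles) and indoor/concentrate-fed animals (orange squares). The groups separate along the vertical axis except for 1 indoor/concentrate-fed animal at 0.053, and for *PPARA* and *PPARD* that animal is also the highest on the horizontal axis.

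Pairs of receptors and coregulators were not found to vary together. Of 7 pairs, with r from 0.00 to 0.58, none passed the adjustment over the 7, and the pair of *PPARGC1A* with *ESRRA* could not be tested. The 7 include *NCOR1* with *NCOA1* (r = 0.23), a corepressor and a coactivator rather than partners that act together. The highest value was that of *NCOA1* with *PPARD* (r = 0.58, permutation p = 0.0277, adjusted 0.194, rho 0.61), and it was 0.35 without the animals farthest from the median of *NCOA1* (outdoor/pasture-fed 4 and indoor/concentrate-fed 2). *PPARGC1A* with *PPARA* gave r = 0.51 (permutation p = 0.0638, adjusted 0.223). *PPARD* with *RXRA*, the heterodimer of muscle, gave 0.09 pooled, 0.38 within outdoor/pasture-fed and -0.81 within indoor/concentrate-fed animals. The outdoor/pasture-fed value was -0.37 without replicate 7 of that group and 0.65 without its replicate 2, and the indoor/concentrate-fed value stayed between -0.90 and -0.62 with any 1 animal left out.

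The genes with the most similar patterns were sought among 5937 varying probe sets with 1 gene symbol, by Pearson's r over the 14 animals and as a description, since the animals share their feeding groups. *NCOA1* was closest to *ACO1*, the cytosolic aconitase that doubles as an iron sensor (0.91), *FHOD3*, a sarcomere formin (0.89), and *ZFP36L2*, an mRNA decay factor (0.88), which differed by -0.41, -0.65 and -0.28. *PPARGC1A* was closest to *LRRC41* (0.85) and to *ISG15* and *IRF9*, both of the interferon response (0.79 and 0.78), with differences of -0.04, -0.25 and -0.07. *PPARA* was closest to *WTAP*, of the RNA methylation complex (0.85), *CHERP* (0.81) and *PCBP4* (0.81). *PPARD* was closest to *NRBP1* (0.89), the transcriptional corepressor *CTBP2* (0.86) and *UTP25* (0.83), and *PPARG* to the kinesin light chain *KLC1* (0.91), *CHST7* (0.87) and the prostaglandin receptor *PTGER4* (0.87). None of these neighbours passed the threshold between feeding systems, the lowest limma adjusted p being 0.25 for *FHOD3*.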

How the data were processed

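The deposited values are log2 expression, which the authors obtained by quantile normalisation and FARMS summarisation of the Affymetrix arrays, and they were used without further normalisation. The array medians lay between 6.77 and 6.84. The study's filter for informative probe sets needs probe-level data and was not repeated. After 112 control probe sets were left out, 24016 were tested, of which 9623 varied (SD above 0.01). Gene names come from the platform annotation, in which 13292 probe sets have 1 symbol, 86 several and 10638 none. Linear models came from limma 3.58.1 (lmFit, eBayes; R 4.3.3), with Benjamini-Hochberg adjustment over all probe sets and a threshold of 0.05. The fit was tested on simulated data. Exact permutation tests covered every assignment of the 14 animals to 7 and 7, with 0.000583 as the smallest p, and correlations used 100000 resamples. Members and lists were chosen with earlier results of these data known. Every member set was named, with 2 genes per list (the smallest p) and 3 neighbours for each of 5 members. Precision is limited by the number of arrays. Alternatives were filters by SD and mean, renewed quantile normalisation, centring, trended and robust priors, array weights, a replicate block and leaving out each animal.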

Additional observations from a re-analysis of the deposited data

Results flagged for a closer look

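For the first *NCOA1* probe set, outdoor/pasture-fed replicate 4 lay apart from its group, at 10.27 against 10.49 for the next lowest animal (a gap of 0.77 of the group's whole range). It was the only one of the 30 member groups examined to do so, and chance alone gives about 1 in 20. Replicate 4 was also below the 14-animal mean on the other *NCOA1* sets. Leaving this animal out brought the number of member probe sets at an unadjusted p under 0.05 to 3. Those left were the first 3 *NCOA1* sets, so the flagged set was not among those lost (limma unadjusted p = 0.0142 without the animal).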

How the results depend on the processing

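No member passed the threshold under any alternative run, with any animal left out included. The count at an unadjusted p under 0.05 in limma, 7 over all probe sets, was between 5 and 7 under the other settings and between 3 and 9 when 1 animal was left out. It was 4 when replicate 2, 5 or 6 of either group was left out, and 3 without outdoor/pasture-fed replicate 4, and the cause was not tested. Member differences kept their sign except for *PPARG* (-0.00075 to 0.07 with 1 animal left out). With the replicate number as a block, 0 members passed and 5 had an unadjusted p under 0.05, and calls over all probe sets numbered 2 against 4. Deviations from the group means correlated above 0.1 in 2 of 7 same-numbered pairs (range -0.18 to 0.24). This cannot show whether the numbers pair the animals, and the labels do not say. Against those 4 calls among 24016 probe sets, there were 33 among the 9623 with SD above 0.01, 32 among the 9330 with SD above 0.05 and 17 among the 12008 left by the filter on the mean. Over all probe sets there were 7 with centred arrays and between 1 and 8 with 1 animal left out. Leaving single animals out of the correlations within feeding groups was chosen after seeing the data. With the group means removed, correlations with PPAR targets turned positive for *PPARA* (0.35), *PPARD* (0.15), *RXRG* (0.16), *PPARGC1A* (0.25) and *NCOA1* (0.22), and those of *RXRA* with *PPARA* and *PPARD* turned negative (-0.41 and -0.20). Without the 2 animals farthest from the median, the target correlation was -0.14 for *PPARG* and 0.09 for *PPARGC1A*. None of these passed before or after.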
